A study of Mus musculus with 20 samples.

Results

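The change in DNA methylation of the paternal genome between sperm and the zygote was described from 4 of the 20 bisulfite libraries of the series, 2 of paternal pronuclei from WT zygotes without drug treatment (WT mock) and 2 of sperm. The libraries were chosen by their titles. The features compared were the 724413 autosomal CpG positions with 5 or more reads in all 4 libraries, and the tiles of the genome that hold 2 or more of them, which were 132435 tiles of 100 bp and 85999 tiles of 1000 bp. A CpG position is 1 cytosine of a CpG on 1 strand. The methylation level of a position is the percent of its reads called methylated, and the level of a tile is the percent of the summed calls of its positions.

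WT mock zygotes came from superovulated females labelled f/f, of 7 to 10 weeks, whose oocytes were fertilised in vitro with C57BL/6J sperm from the cauda epididymidis. Pronuclei were taken with a micromanipulator at 12 hours after fertilisation and frozen at 13 hours, and the paternal one was told from the maternal one by its size and its distance from the second polar body. The sperm libraries carry the labels WT, paternal and mock; the males behind them are not named. Paternal pronuclei of 3 other groups were used for their levels: WT zygotes cultured with 3 µg/ml aphidicolin, a blocker of DNA replication, from 5 hours on, and mock or aphidicolin-treated zygotes of CKO females (Zp3-Cre, f/-). Zp3-Cre acts in growing oocytes, and CKO stands for loss of Tet3 from the oocyte. Each group had 2 libraries, typically of about 20 pooled pronuclei and 21 PCR cycles. No label says that the replicates came from separate matings, so the spread between them may be partly technical.

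In mammals sperm DNA is highly methylated outside CpG islands, and the paternal genome loses much of this methylation in the zygote before the first cleavage. Tet3, a dioxygenase supplied by the oocyte, oxidises 5-methylcytosine there, and replication dilutes marks that are not copied to the new strand. Imprinting control regions are known to keep the methylation of their parent of origin through this phase. Bisulfite sequencing reads 5-methylcytosine and 5-hydroxymethylcytosine alike, so a level here is the sum of both, and the reduced representation method reads CpG-rich fragments cut by MspI rather than the whole genome.

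The WT mock libraries held 37303719 and 65480095 CpG calls and the sperm libraries 54486987 and 53065048. At the positions compared the median depth was 34 and 45 reads in WT mock and 39 and 38 in sperm. Depth does not give the number of DNA molecules behind a level, since amplified reads without molecular identifiers are not independent. As a check of the labels, 2234 tiles that oocytes carry at 75% or more and sperm at 25% or less averaged 4.79% and 6.18% in WT mock pronuclei and 4.74% and 4.64% in sperm. The WT mock levels at these tiles were thus close to those of sperm. Chromosomes are in sorted order in the WT mock files and in another order in the sperm files, and a difference in preparation between pronuclei and sperm cannot be told apart from the biological one.

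Methylation was lower in WT mock paternal pronuclei than in sperm on every scale, and the mean hid a wide range of changes. Over 1000-bp tiles the mean level was 30.0% and 32.3% in the WT mock libraries, against 55% and 55% in the sperm libraries. The mean change, WT mock minus sperm, was -23.9 percentage points, and the 4 differences between single libraries ran from -25.1 to -22.7. Both WT mock libraries lay below both sperm libraries; the exact two-sided permutation test of 2 against 2 libraries gave p = 0.33, the smallest this design allows. Over 100-bp tiles the mean change was -14.3 points (19.2% in WT mock and 33.5% in sperm), and over single positions -10.7 points (15.0% in WT mock and 25.6% in sperm), with the same exact p of 0.33. These 3 means differ along with the share of unmethylated sequence that each unit counts. Among tiles with 4 or more positions, in which sperm averaged 34.4% over 1000-bp tiles and 11.5% over 100-bp tiles, the mean changes were -13.8 and -3.62 points.

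The change over all 1000-bp tiles had a median of -15.2 points, well above its mean. Its 1st, 5th and 10th percentiles were -97.2, -78.0 and -67.5 points, and the quartiles were -46.4 and -0.155. At the upper end the 90th, 95th and 99th percentiles were 1.52, 6.82 and 33.8 points. WT mock was more than 50 points below sperm in 21.1% of tiles and 10 to 50 points below in 32.7%. A further 42.3% lay within 10 points of sperm and 3.82% were higher by 10 points or more. Both WT mock libraries lay below both sperm libraries in 57.2% of all 1000-bp tiles, and above both in 5.28%; for 100-bp tiles these shares were 35.1% and 4.18%.

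The starting level in sperm separated these outcomes. The classes below were set by the sperm libraries alone, which also enter the change, so that a high class can fall further than it can rise and a low class the reverse. Of the 1000-bp tiles, 44640 stood at 75% or more in both sperm libraries and are called sperm-methylated. They averaged 51% and 54.6% in the WT mock libraries, against 96.1% and 96.1% in the sperm libraries. The mean change was -43.3 points, with single-library differences from -45.1 to -41.5, and the exact permutation p was again 0.33. The sperm-methylated tiles stood 45% below their sperm level, counted from the means. At 100 bp, 41219 sperm-methylated tiles averaged 51.8% in WT mock and 96.1% in sperm, and 172218 sperm-methylated positions averaged 52.1% in WT mock and 96.4% in sperm. In this class the mean change hardly depended on the unit.

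Within the sperm-methylated tiles the loss was far from even. The quartiles of the change were -61.6, -43.6 and -24.1 points, and the 5th and 95th percentiles -87.8 and 0 points. WT mock was more than 50 points below sperm in 38.8% of these tiles, 10 to 50 points below in 49.9%, within 10 points in 10.9%, and 10 points or more above in 0.388%. In 4.40% the gap was over 90 points. Both WT mock libraries were below both sperm libraries in 73.2% of the sperm-methylated tiles, beside 57.2% of all tiles.

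**Figure D1:**
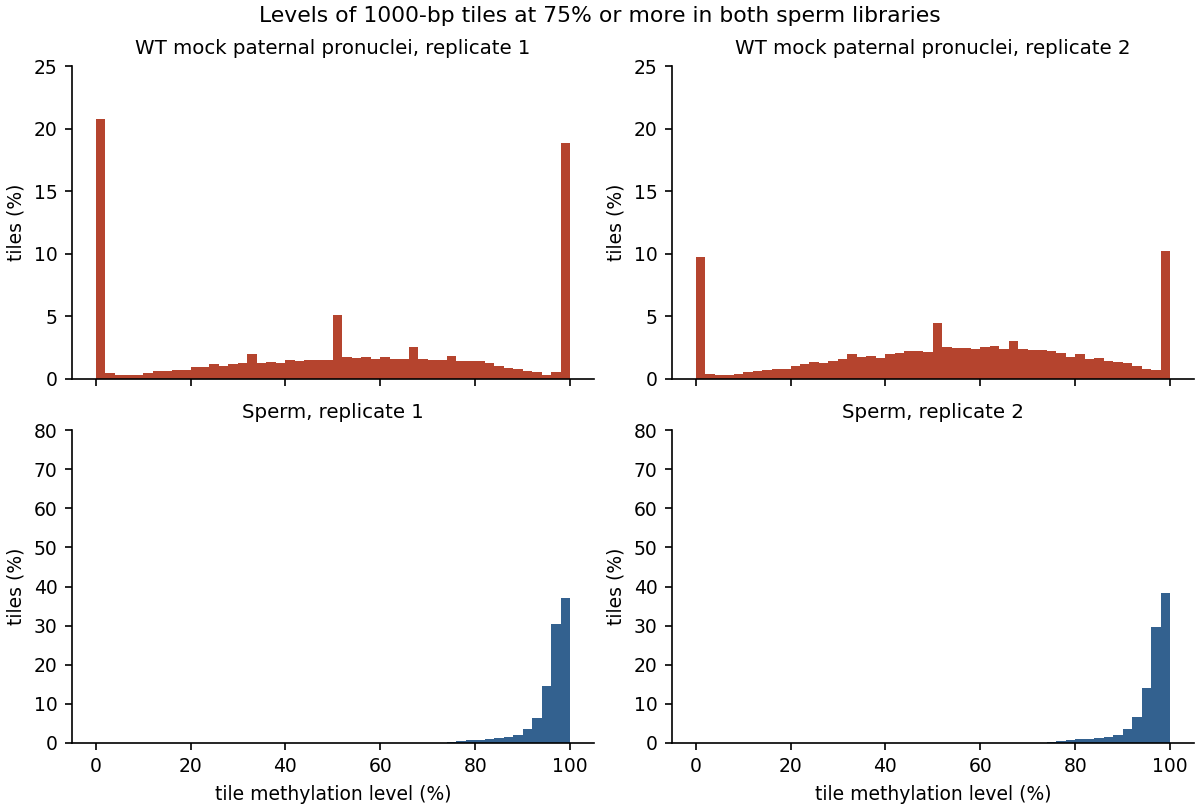
Share of the 44640 sperm-methylated 1000-bp tiles (vertical axis, percent) by methylation level (horizontal axis, percent, in steps of 2 points) in each WT mock library (upper row) and each sperm library (lower row, with a taller axis). The WT mock libraries have a broad middle and a spike at each end, with 22.0% and 11.1% of tiles at 10% or less, while 92.1% and 92.0% of tiles are at 90% or more in the sperm libraries.

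The shape of the levels in WT mock pronuclei had 3 features, shown in the histograms of tile levels. The middle was broad, with a median of 51.6% and quartiles of 19.4% and 81.8% in replicate 1, and a median of 56.3% and quartiles of 34.8% and 76.7% in replicate 2. The ends were heavy. In replicate 1, 22.0% of tiles were at 10% or less and 20.9% at 90% or more; in replicate 2 these shares were 11.1% and 13.9%. In the sperm libraries 0% of these tiles were at 10% or less, by the choice of the class, and 92.1% and 92.0% were at 90% or more. Much of both ends was at the limit itself, since 20.1% and 9.45% of tiles were at exactly 0 in the WT mock libraries and 17.5% and 9.36% at exactly 100%.

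Single positions were more extreme still, also at high depth. Of the 102776 sperm-methylated positions with 20 or more calls in each of the 4 libraries, 33.9% read 0 and 35.9% read 100% in WT mock replicate 1, and 21.1% lay between 25% and 75%. In WT mock replicate 2, 13.6% read 0, 19.6% read 100% and 46.5% lay between. The sperm libraries had 33.2% and 34.8% of these positions at 100% and 0% at 0. The median number of calls at these positions was 44 and 58 in WT mock and 48 and 47 in sperm. The 2 WT mock libraries often disagreed on which positions were empty or full. Both read 0 at 6.23% of the positions, both read 100% at 9.59%, and one read 0 where the other read 100% at 8.76%.

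The loss was close to proportional to the sperm level from intermediate levels upwards. Tiles at 25% to under 50% in sperm averaged 20.4% in WT mock and 36.9% in sperm, a relative loss of 44.6%. Tiles at 50% to under 75% averaged 34.8% in WT mock and 63.1% in sperm, a relative loss of 44.9%. Above that the relative loss was 40.9% at 75% to under 90%, 43.3% at 90% to under 95%, 45.6% at 95% to under 99%, and 46.5% at 99% or more. Tiles at 10% to under 25% in sperm had a smaller relative loss of 33.9%, with means of 11% in WT mock and 16.7% in sperm. Below 5% in sperm the mean was higher in WT mock, 2.15% in WT mock and 0.245% in sperm for tiles under 1%, and 4.59% in WT mock and 2.40% in sperm for tiles of 1% to under 5%. The median change there was below 0, at -0.0482 and -1.42 points, so the higher means came from a minority of tiles.

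**Figure D2:**
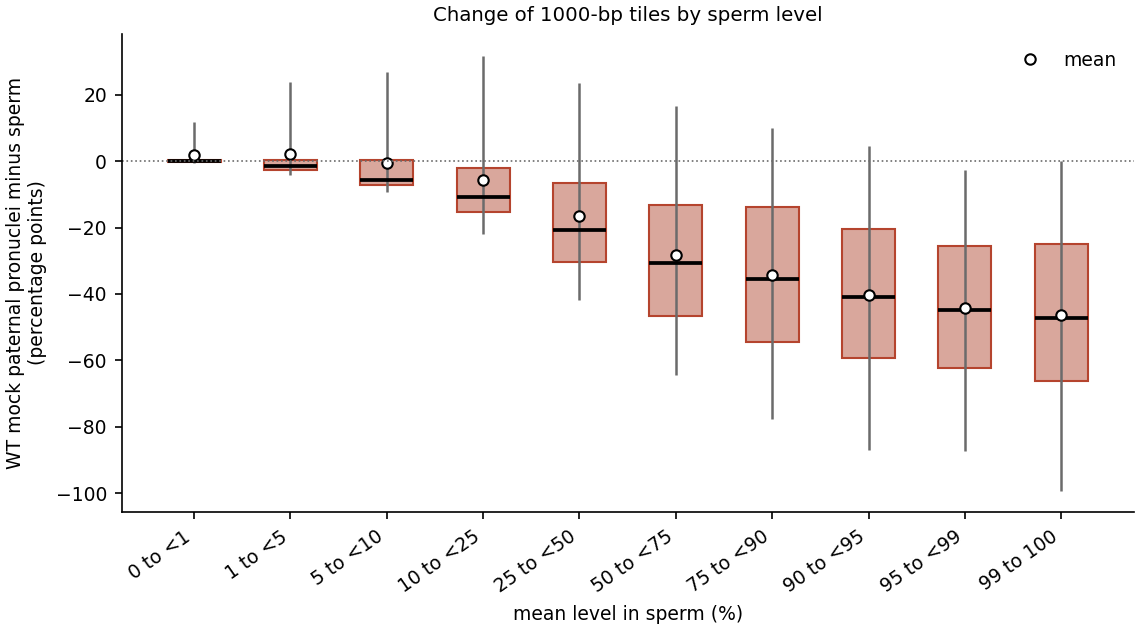
Change of 1000-bp tiles (vertical axis, WT mock paternal pronuclei minus sperm, in percentage points) by the mean level in sperm (horizontal axis, percent). Boxes span the quartiles, black lines mark medians, grey lines run from the 5th to the 95th percentile, and white circles are means. The median is -47.3 points at 99% or more in sperm, and the quartiles lie far apart in every class from 75% up.

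The mean loss was similar on the 19 autosomes. The mean change of sperm-methylated tiles ran from -45.2 points on chromosome 19 to -41.1 points on chromosome 3. On the X chromosome, which only X-bearing sperm contribute, 307 sperm-methylated tiles averaged 54.2% and 58.7% in WT mock, against 94.2% and 94.1% in sperm. Tiles that oocytes also carry at 75% or more (16270 tiles) changed by -44.2 points on average, and tiles at 25% or less in oocytes (19261 tiles) by -43.8 points. Within WT mock replicate 1 these classes averaged 50.5% and 50.2%, and within replicate 2 54.3% and 54.0%. The state of the maternal copy thus went with little difference in either library.

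Windows of 10 Mb showed some departures that both WT mock libraries shared. Over 233 such windows with 50 or more sperm-methylated tiles, the median change was -42.9 points and the range -50.6 to -25.1 points, with the 5th and 95th percentiles at -47.0 and -34.8 points. The level in replicate 1 correlated with that in replicate 2 across windows (Pearson's r = 0.53, n = 233 windows, which share the libraries and their sequence content). By the mean of the 2 WT mock libraries the most depleted window was on chromosome 8 between 100 and 110 Mb (mm9). Its 144 sperm-methylated tiles averaged 41.3% and 49.9% in WT mock and 96.3% in sperm. Its rank came from replicate 1, since replicate 2 was lower in other windows, such as 49.2% on chromosome 7 between 130 and 140 Mb. The highest mean levels in WT mock were found in windows not far above the minimum of 50 tiles. They were 67.3% and 65.8% on chromosome 18 up to 10 Mb (68 tiles, 95.1% in sperm). On chromosome 3 between 10 and 20 Mb they were 70.5% and 62.4% (52 tiles, 91.6% in sperm). On chromosome 9 up to 10 Mb they were 65.0% and 63.7% (55 tiles, 93.2% in sperm).

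At the scale of single tiles the 2 WT mock libraries agreed little on where methylation was lost. Across the 44640 sperm-methylated tiles their levels correlated with r = 0.22, and the median difference between them was 26.0 points, against 1.79 points between the 2 sperm libraries. Both libraries were at 10% or less in 4.41% of tiles, both at 90% or more in 5.58%, and both between 25% and 75% in 26.2%. One library at 10% or less with the other at 90% or more, in either order, was found in 4.61% of tiles.

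The disagreement was larger where a tile held few positions or few calls. Tiles with under 50 calls in the shallowest of the 4 libraries (13909 tiles) had an r of 0.16, a median difference of 34.3 points between the WT mock libraries, and 1460 tiles at opposite ends. In tiles of 2 to 3 positions, which were 30778 of the 44640, r was 0.19 and the 2 libraries stood at opposite ends in 6.19%. In the 379 tiles of 11 to 20 positions r was 0.50, the median difference between the WT mock libraries was 14.5 points, and 0 tiles stood at opposite ends. With more positions the spread of the change narrowed toward the middle. The 5th and 95th percentiles of change were -92.3 and 0.683 points for 2 to 3 positions, -81.1 and -2.16 for 4 to 6, -74.9 and -3.01 for 7 to 10, and -68.1 and -3.00 for 11 to 20. The share of tiles with both WT mock libraries between 25% and 75% was 22.3%, 32.1%, 44.7% and 57.8% in these 4 classes.

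**Figure D3:**
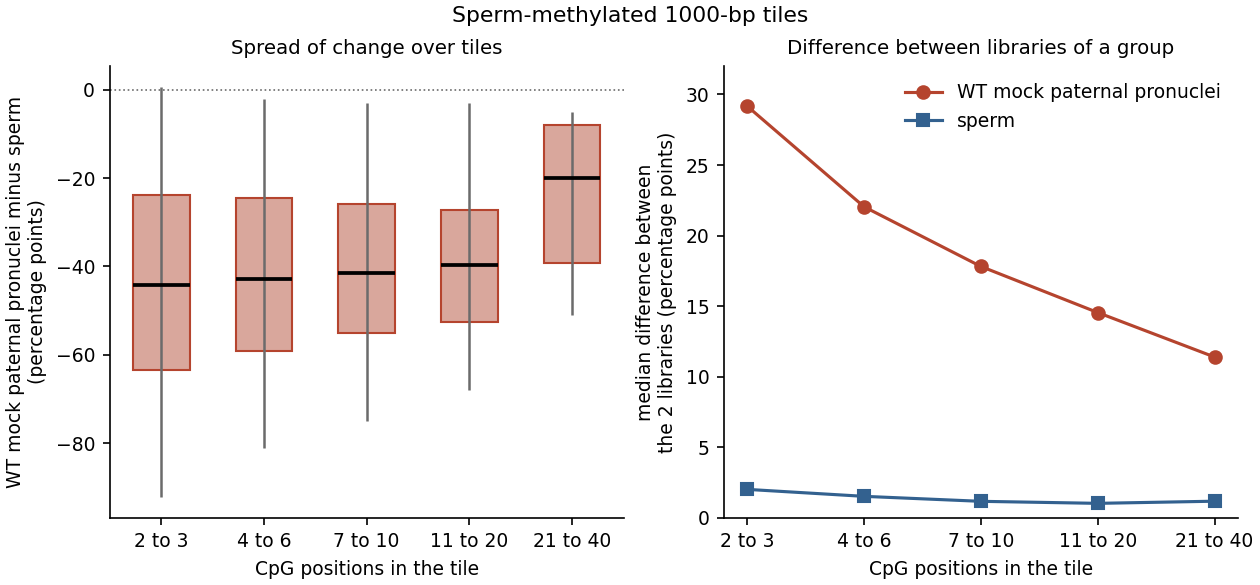
Left, change of sperm-methylated 1000-bp tiles (WT mock paternal pronuclei minus sperm, percentage points) by the number of CpG positions in the tile, with quartile boxes, black medians and grey lines from the 5th to the 95th percentile. Right, median difference between the 2 libraries of a group. The WT mock difference is 29.2 points at 2 to 3 positions and 11.4 at 21 to 40, and the sperm difference stays near 1 to 2 points.

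The mean change also differed with the number of positions and reads. It was -43.9, -42.2, -40.5 and -38.7 points for 2 to 3, 4 to 6, 7 to 10 and 11 to 20 positions, and -24.7 points in the 14 tiles of 21 to 40 positions. By the calls in the shallowest of the 4 libraries it was -47.5 points under 50 calls and -34.9 points at 400 or more (584 tiles). Depth and the number of positions go together, and their separate parts in the change were not tested.

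Neighbouring positions in the same library were alike, whereas the same position in the other library was not. Sperm-methylated positions 2 to 5 bp apart had r = 0.66 within WT mock replicate 1 and 0.68 within replicate 2 (9954 pairs), and at 21 to 50 bp r was still 0.53 and 0.53 (69422 pairs). Between the 2 libraries r was 0.16 at the same position (172218 positions) and 0.17 at 21 to 50 bp. The 6757 pairs 1 bp apart were an exception, with r of 0.12 and 0.19 within the libraries and 0.15 between them. Such pairs lie on opposite strands, either of 1 CpG or, in CGCG sequence, of 2 CpGs that touch. Within a library, positions 1 bp apart on opposite strands thus had an r close to that of the same position in separate libraries. Positions within 50 bp on the same strand can share reads, which positions on opposite strands do not.

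Over longer distances the likeness ended within a few kilobases. Adjacent sperm-methylated tiles had r = 0.18 and 0.22 within the WT mock libraries and 0.17 between them (3629 pairs). At 2000 to 5000 bp r between the libraries was 0.076 (9300 pairs), and at 6000 to 10000 bp it was 0.012 (10586 pairs). From 6000 bp on, the within-library and between-library values differed by less than 0.01, and all were weak.

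**Figure D4:**
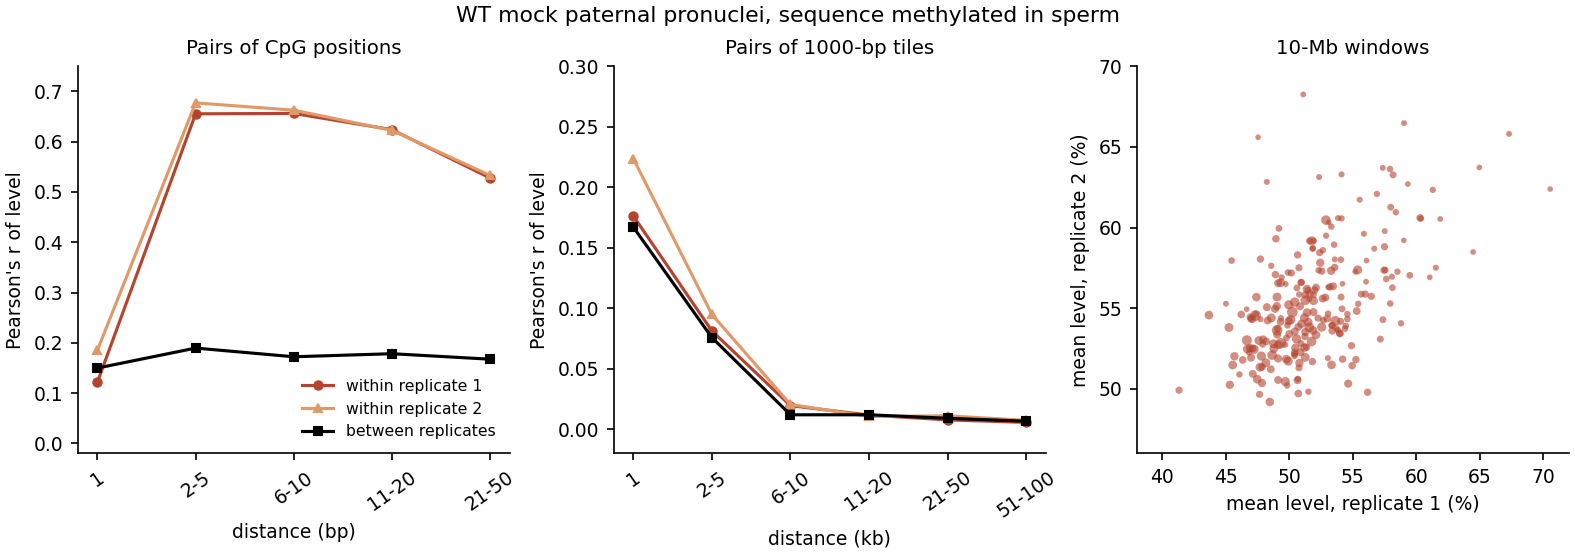
Pearson's r of the methylation level in WT mock paternal pronuclei between pairs of sperm-methylated CpG positions by their distance in bp (left) and between pairs of sperm-methylated 1000-bp tiles by their distance in kb (middle), within each library and between the 2 libraries. Right, mean level of sperm-methylated tiles per 10-Mb window in replicate 1 against replicate 2 (percent, 233 windows, larger points with more tiles). Within-library r is above 0.5 from 2 to 50 bp, while r between libraries stays below 0.2.

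Calls came from a quasi-binomial logistic model of each tile, at a Benjamini-Hochberg adjusted p under 0.05 over all tiles and a difference of 10 points or more. WT mock pronuclei were lower than sperm in 9182 of the 85999 1000-bp tiles (10.7%) and higher in 881 (1.02%). At 100 bp they were lower in 1033 of 132435 tiles (0.78%) and higher in 202 (0.153%). These counts rest on the dispersion, taken from the spread between replicates in the 10 paternal libraries; with the 4 libraries alone 0 tiles were called in either direction at either size, while the unadjusted p was under 0.05 for 18012 lower and 1244 higher 1000-bp tiles. Without sperm replicate 1 or 2 the 1000-bp calls were 141 or 164 lower and 99 or 110 higher. A group left with 1 library no longer enters the dispersion, so that the dispersion changed as well. Calls of the quasi-binomial test therefore do not count how many tiles changed. The dispersion of a tile was set by a trend with depth alone. Disagreement between the libraries of a group at that tile thus did not weigh on its call.

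Calls lower than sperm lay mostly in sperm-methylated tiles (8786 of 9182). The share called went with the number of positions, at 10.9% of sperm-methylated tiles with 2 to 3 positions, 34.1% with 4 to 6, 58.2% with 7 to 10 and 75.7% with 11 to 20, beside 10.7% of all tiles. The 9182 tiles called lower had medians of 21.5% and 34.7% in WT mock, the values they were chosen by, and 97.4% and 97.4% in sperm. In libraries that did not enter the contrast their medians were 60.7% and 63.3% for CKO mock and 100% and 100% for WT aphidicolin paternal pronuclei. The 8786 called tiles that were sperm-methylated had medians of 61.7% and 64.2% for CKO mock and 100% and 100% for WT aphidicolin. Among all sperm-methylated tiles these medians were 64.9% and 68.0% for CKO mock and 100% and 100% for WT aphidicolin.

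The 5 tiles with the largest falls stood between 0% and 15.7% in the WT mock libraries. They were taken from the 17383 tiles with 10 or more positions and 50 or more calls in each library, and no gene is named because the annotation at hand is of another build than mm9. The 15 positions of chr9:22165001-22166000 had a level of 0% and 0.418% in WT mock (410 and 239 calls), against 98.3% and 97.7% in sperm (767 and 786 calls). This fall of 97.8 points had an adjusted p of 1.2e-11 in the quasi-binomial test. With the dispersion from the 4 libraries alone, the adjusted p in that test was 0.084. The same tile read 87.5% in the WT aphidicolin library that covered it, 73.8% and 70.1% in CKO mock pronuclei, and 99.2% and 96.2% in oocytes. In CKO aphidicolin it was covered by 1 library, at 94.5%.

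The next tiles differed in their oocyte level. The tile chr9:118093001-118094000 had 8.86% and 0.472% in WT mock, against 97.6% and 97.6% in sperm (adjusted p = 0.00046, quasi-binomial test), with 51.2% and 42.4% in CKO mock and 1.42% and 0% in oocytes. The tile chr12:110824001-110825000 had 0% and 15.7% in WT mock, against 97.3% and 97.8% in sperm (adjusted p = 4.8e-09), with 37.2% and 53.1% in CKO mock, 94.3% and 100% in WT aphidicolin, and 99.7% and 100% in oocytes. The remaining 2, chr7:4629001-4630000 and chr9:108477001-108478000, had 12.4% and 4.52%, and 0.746% and 15.2%, in WT mock, against 96.5% to 99.1% in sperm. Their oocyte levels were 92.3% and 99.6% for the tile on chromosome 7, and 36.4% and 25.1% for the tile on chromosome 9. Since the 5 tiles were chosen for low WT mock values, the levels of the other groups are given as a description. With the dispersion from the 4 libraries alone, the quasi-binomial adjusted p of the 5 tiles ran from 0.084 to 0.093. In limma on arcsine square roots it ran from 0.0092 to 0.048, and from 0.136 to 0.143 with a replicate block.

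Other sperm-methylated tiles were near full methylation in both WT mock libraries. Among the 632 such tiles with 10 or more positions and 50 or more calls, the 5 with the highest lower WT mock library were named. The tile chr14:92439001-92440000 had 99.8% and 99.8% in WT mock (510 and 594 calls), against 94.8% and 92.1% in sperm. The tile chr4:138523001-138524000 had 99.8% and 99.6% in WT mock, against 97.8% and 95.2% in sperm, and 7.44% and 3.91% in oocytes. The tiles chr15:76009001-76010000, chr8:73436001-73437000 and chr19:6261001-6262000 had 96.4% to 100% in WT mock and 90.5% to 98.5% in sperm. These tiles were picked as extremes of 632, for high WT mock levels, and changed by 0.401 to 6.76 points. A call needs 10 points or more, so that 0 of the 5 was called follows from the choice. In CKO mock the tiles on chromosomes 14, 4 and 15 had 91.4% and 78.0%, 100% and 93.4%, and 100% and 95.7%. Those on chromosomes 8 and 19 had 91.8% and 75.0%, and 82.1% and 93.6%. WT aphidicolin had 97.8% and 61.5% at the tile on chromosome 14. At the others it had 85.6% to 100% where a library had 10 or more calls.

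The 2 paternally methylated imprinting control regions examined were also near full methylation in WT mock at most of their tiles. They were located by mm9 windows taken from general knowledge. The H19/Igf2 control region, which silences H19 on the paternal copy, had 1 tile, chr7:149767001-149768000, with 2 positions. Its level was 100% and 100% in WT mock (44 and 58 calls), against 100% and 98.4% in sperm and 0% and 0% in oocytes. The Dlk1-Meg3 control region had 3 tiles. The best covered, chr12:110764001-110765000 with 8 positions, had 99% and 100% in WT mock, against 96.5% and 97.8% in sperm, with 50.0% and 10.6% in oocytes. The tile chr12:110763001-110764000, with 2 positions, had 80.8% and 98.1% in WT mock, against 97.9% and 94.4% in sperm. The tile chr12:110767001-110768000, also with 2 positions, had 100% in all 4 WT mock and sperm libraries. In CKO mock the H19/Igf2 tile had 92.1% and 100%, and the best covered Dlk1-Meg3 tile 100% and 77.3%. The other Dlk1-Meg3 tiles had 80.3% and 93.4%, and 100% and 50.0% (30 and 16 calls), in CKO mock. The quasi-binomial test called 0 of these 4 tiles, beside 10.7% lower and 1.02% higher over all tiles, so that the count by itself sets them apart from no other tiles. Their levels belong to the 10.9% of sperm-methylated tiles within 10 points of sperm, so mean levels near those of sperm were not limited to them. That share is over means of 2 libraries that often disagreed, mostly in tiles of 2 to 3 positions. Both WT mock libraries were at 90% or more in 6.16% of sperm-methylated tiles with 2 to 3 positions. With 11 to 20 positions this was 3.69%.

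Typical tiles show how a middle level was made up. The tile nearest the 10th percentile of change among sperm-methylated tiles of this coverage, chr1:36852001-36853000 with 10 positions, had 27.4% and 47.2% in WT mock, against 98.8% and 98.4% in sperm. In WT mock replicate 1 all 10 positions read either 0 or 100%, and 3 read 100%, each in 26 calls. Position 36852173 read 100% in both WT mock libraries, and positions 36852141 and 36852170 read 0% in both. The tile nearest the median, chr11:3425001-3426000, had 87.9% and 30.0% in WT mock, against 98.9% and 97.6% in sperm. In its replicate 2 each of the 10 positions had 15 calls and read 0 or 100%. The tile nearest the 90th percentile, chr10:83083001-83084000 with 12 positions, had 89.0% and 86.1% in WT mock, against 98.3% and 97.5% in sperm. There, some partly methylated positions of a library shared a level with a neighbour, such as 60.7% at 2 positions of replicate 1 and 83.6% at 2 of replicate 2.

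Gains were rare and modest in the mean. The 34164 tiles at 25% or less in both sperm libraries averaged 3.10% and 3.80% in WT mock, against 2.18% and 2.14% in sperm. The mean change was 1.29 points, with single-library differences from 0.927 to 1.65 and an exact permutation p of 0.33, and the median was -0.129 points. The upper tail was long, with the 95th and 99th percentiles at 16.4 and 50.0 points. WT mock replicate 1 was 10 points or more above sperm in 2338 tiles (6.84%), replicate 2 in 2878 (8.42%), and both in 1255 (3.67%). The shared tiles were 53.7% of those of replicate 1 and 43.6% of those of replicate 2.

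Of the 881 tiles called higher, 861 were in this low class, and 2.69% of its tiles at 75% or more in oocytes were called higher, 2.56% of those at 25% or less, and 1.02% of all tiles. Of the 877 called tiles also read in oocytes, 64 (7.30%) stood at 75% or more there and 758 (86.4%) at 25% or less. Among all tiles of the low class read in oocytes these shares were 6.74% and 88.0%. In libraries outside the contrast the 881 tiles had medians of 28.1% and 28.6% for CKO mock, 35.3% and 20.9% for WT aphidicolin, and 29.0% and 19.2% for CKO aphidicolin pronuclei. The 2 gametes had medians of 0.301% and 0.307% in sperm and 0.400% and 0.325% in oocytes. The higher level was thus present in paternal pronuclei of all 4 groups. Low levels in both gametes were shared with the low class as a whole and did not set the called tiles apart.

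The tiles with the largest rises differed in their oocyte level. The tile chr9:21936001-21937000 with 14 positions had 82.7% and 69.0% in WT mock (591 and 1061 calls), against 0.993% and 1.49% in sperm, an adjusted p of 5.4e-09 in the quasi-binomial test. It read 1.08% and 0% in oocytes, and 76.4% and 79.9% in CKO mock pronuclei. The tile chr13:31707001-31708000 with 17 positions had 79.8% and 62.9% in WT mock, against 0.162% and 0.814% in sperm (adjusted p = 1.9e-15), and 0.313% and 2.20% in oocytes. Its levels were 49.3% and 58.0% for CKO mock and 77.7% and 73.7% for WT aphidicolin. With the dispersion from the 4 libraries alone, the quasi-binomial adjusted p of the 5 largest rises ran from 0.084 to 0.11. In limma on arcsine square roots it ran from 0.013 to 0.026, and was 0.136 with a replicate block.

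The other 3 were less empty in sperm. The tile chr5:137799001-137800000 had 81.9% and 82.8% in WT mock, against 10.4% and 6.29% in sperm, with 96.2% and 93.6% in oocytes. The tile chr9:35089001-35090000 had 90.2% and 82.1% in WT mock, against 11.6% and 14.2% in sperm, with 83.3% and 97.4% in oocytes. The tile chr15:81902001-81903000 had 81.8% and 90.9% in WT mock, against 15.9% and 14.5% in sperm (adjusted p = 0.042), with 2.30% and 0% in oocytes. So 2 of the 5 largest rises were at tiles highly methylated in oocytes. The part of maternal DNA in these libraries was not tested beyond the oocyte-specific tiles given above, which averaged 4.79% and 6.18% in WT mock.

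Against the other paternal pronuclei, WT mock stood lowest in sperm-methylated tiles. Over the 16532 such tiles with 10 or more calls in every paternal library, WT mock averaged 54.5% and 58.2%, against 92.9% and 94.6% in WT aphidicolin, a difference of -37.4 points with single-library differences from -40.1 to -34.6. CKO mock averaged 64.4% and 67.2%, so that WT mock was 9.44 points lower, with single-library differences from -12.7 to -6.16. The tiles that oocytes carry at 75% or more and sperm at 25% or less, given above for WT mock, averaged 12.7% and 6.46% in CKO mock, 7.10% and 5.96% in WT aphidicolin, and 12.1% and 7.17% in CKO aphidicolin, against 4.74% and 4.64% in sperm. In CKO mock replicate 1, sperm-methylated tiles at 75% or more in oocytes averaged 66.8% and those at 25% or less 58.3%, against 66.1% and 64.1% in CKO mock replicate 2. The part of these values in the difference between WT mock and CKO mock was not tested. Each exact permutation test gave p = 0.33, the smallest possible with 2 against 2. CKO aphidicolin averaged 92.0% and 96.0%, and sperm 95.9% and 96.0%.

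The groups also differed in the form of their distributions. WT mock had the widest one, with quartiles of 40.1% and 73.2% and 5th and 95th percentiles of 18.6% and 93.9% over the mean of its 2 libraries. CKO mock had quartiles of 54.8% and 77.9% and a 5th percentile of 36.8%. WT aphidicolin had a median of 100% and a 5th percentile of 71.4%, and sperm a median of 97.2% and a 5th percentile of 86.4%. Both libraries were at 10% or less in 1.31% of tiles in WT mock, 0.0544% in WT aphidicolin and 0.139% for CKO mock. Both were at 90% or more in 4.70% of tiles in WT mock and 4.33% in CKO mock, against 67.8% in WT aphidicolin. The difference between WT mock and CKO mock was thus larger at the low end than at the high end, a comparison that was not tested.

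**Figure D5:**
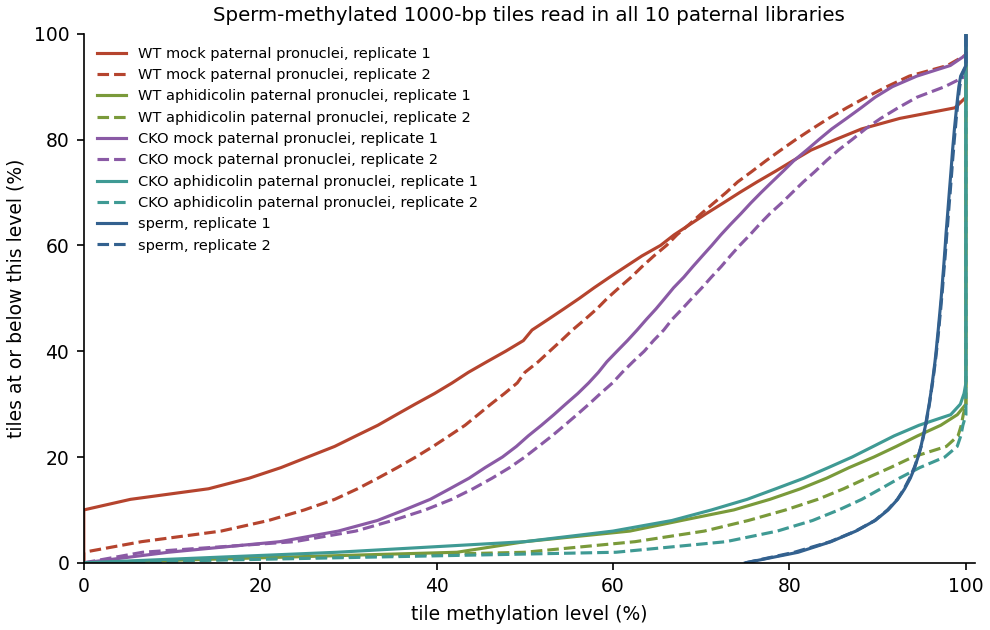
Share of sperm-methylated 1000-bp tiles (vertical axis, percent) at or below a methylation level (horizontal axis, percent) for each of the 10 paternal libraries, over the 16532 tiles with 10 or more calls in all of them. The WT mock curves are highest at low levels, the CKO mock curves cross that of WT mock replicate 1 at high levels, and both aphidicolin groups and sperm rise near 100%.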

How the data were processed

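Per the submitters' processing notes, reads were processed with Trim Galore and Bismark 0.10.1 on the mm9 build. For filters and duplicate removal the sources used here give nothing. The deposited files give methylated and unmethylated counts per CpG position, unnormalised, and a deposited percent, which was recomputed from the 2 counts (largest deviation 7.1e-14). Groups came from the labels. The libraries compared and the lists used were chosen with earlier results of these data known.

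Tile counts were summed over positions with 5 or more reads in all 4 libraries. Each tile was tested by the deviance of WT mock against sperm in a quasi-binomial logistic model. Its dispersion came from replicate residuals of the 10 paternal libraries, where both libraries of a group had 10 or more calls and expected 5 or more of both kinds. It was shrunk on a trend with depth by limma 3.58.1 squeezeVar, which relied on the trend alone, with a floor of 1, an F test and Benjamini-Hochberg adjustment. The mean dispersion over 1000-bp tiles was 45.4 in WT mock and 3.05 in sperm, yet 1 value served both. Code was tested on simulated data. Library means were compared by exact permutation (scipy 1.17.1). The tiles named were the 5 called tiles of largest fall and of largest rise with groups not overlapping, the 5 best kept, 3 at set percentiles of change, and those of 2 imprinting control regions. An mm9 genome or annotation was not used here, so genes and sequences are not printed. Alternatives were a coverage minimum of 10 reads, 4 or more positions per tile, weighting by reads or by position, another dispersion, limma on arcsine square roots, a replicate block, no minimum difference, and leaving out each library. Binomial intervals are exact (Clopper-Pearson, 95%) and cover counting error only.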

Additional observations from a re-analysis of the deposited data

Results flagged for a closer look

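The mitochondrial genome was outside the comparison and stood apart in sperm. The level at mitochondrial CpG positions was 0.320% and 0.233% in the WT mock libraries, over 586688 and 1114189 calls, and 15.2% (176 of 1159 calls, 95% interval 13.2% to 17.4%) and 1.16% (16 of 1381 calls, 0.664% to 1.87%) in sperm replicates 1 and 2. Both sperm values lie above the range of the other 10 libraries read for it, 0.168% to 0.320%. They rest on few calls, and a cause was not tested.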

How the results depend on the processing

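The mean changes kept their direction under all alternatives run. Over sperm-methylated 1000-bp tiles the range was -45.1 to -41.5 points. With 4 or more positions per tile the mean over all 1000-bp tiles was -13.8 and over 100-bp tiles -3.62 points, and positions weighted by reads gave -7.93 points. Counts of calls depended on the processing. With the dispersion from the 4 libraries alone, 0 tiles were called lower and 0 higher at both sizes; at an unadjusted p under 0.05 these were 18012 and 1244 at 1000 bp, and 12558 and 1288 at 100 bp. limma without a replicate block called 13086 lower and 808 higher at 1000 bp, and 7764 and 720 at 100 bp. With the replicate block limma called 0 at both sizes and in both directions, with 20030 and 1202 at an unadjusted p under 0.05 at 1000 bp, and 13018 and 1349 at 100 bp. No label says that the replicate numbers pair the samples. The difference between replicates in WT mock correlated with that in sperm at r = 0.0032 over 85999 tiles. This r cannot decide the pairing, since the sperm libraries differed by a median of only 1.79 points in sperm-methylated tiles. Paired means, where the exact permutation p cannot go below 0.50, were the same. With 4 or more positions, 599 tiles of 100 bp were lower. Leaving out 1 library gave 141 to 11969 lower and 99 to 971 higher at 1000 bp, and 3 to 3165 lower and 1 to 299 higher at 100 bp. The lowest values came without a sperm library. Leaving out 1 library also took its group out of the shared dispersion. The mean dispersion over 1000-bp tiles was 45.4 in WT mock and 3.05 in sperm. The part of this in the counts was not tested. Of the 5 named falls and 5 named rises, 4 and 3 kept their call without sperm replicate 1, 3 and 2 without sperm replicate 2, and 0 and 0 with the 4-library dispersion. These named-tile checks and the pairing of the other paternal groups were chosen after seeing the data.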
